A study of Rattus norvegicus with 180 samples.

Results

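The trachea, a conducting airway held open by cartilage, was compared with the lung, most of which is gas exchange tissue, in the same 3 rats. The comparison used 6 of the 180 arrays of a rat miRNA atlas: the trachea and the lung of rats 4, 5 and 6, matched by rat number, with 1 array per organ and rat. These were male Sprague-Dawley rats 10 weeks old, untreated except that saline was perfused under ether anaesthesia to clear the blood before the organs were taken. Lungs of rats 1, 2 and 3, of the same strain, sex and age but not perfused, were set beside them where blood bears on a value. The sources used here do not say which stretch of trachea or which lobe of lung was taken, or how much muscle and thyroid was trimmed from the trachea. Each array measured total RNA of a whole organ piece with probes for 717 rat miRNAs, and 187 of them, those detected on all 3 trachea arrays or on all 3 lung arrays, were tested. In such pieces fewer cells of a type and less miRNA per cell cannot be told apart.

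A miRNA is a short RNA that lowers the output of messenger RNAs carrying a match to its seed, the bases near its 5′ end, and miRNAs with the same seed share many targets. Airway epithelium is known for multiciliated cells, which use the miR-34 and miR-449 family during the making of cilia, and for basal cells, which use miR-205. Cartilage is known for miR-140, which lies within the Wwp2 gene and is needed for normal growth of cartilage, and for miR-455. Endothelium, the lining of the capillaries that fill the lung, is known for miR-126, which lies within Egfl7. The sequences on which the results turned are given first, from RefSeq (build GRCr8), in lower case with the seed, bases 2 to 8, in capitals. Sequences were matched to the array by name. The array files name each miRNA without its bases, so the arm of a name that carries no arm was taken from naming use.

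The first set shares the seed GGCAGUG, which 5 of 693 mature rat miRNAs in the RefSeq table carry, and is shown because 1 of these 4 was called, in the direction opposite to the differences of the others. In order they lie in Mir34a at chr5:165815971-165815992 on the plus strand, in Mir34b at chr8:60306657-60306679 and Mir34c at chr8:60306133-60306155, both on the minus strand, and in Mir449a at chr2:46403925-46403946 on the plus strand.
miR-34a: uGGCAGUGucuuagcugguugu
miR-34b: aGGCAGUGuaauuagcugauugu
miR-34c: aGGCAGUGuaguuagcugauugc
miR-449a: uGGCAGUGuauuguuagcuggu

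The next set holds miRNAs that were higher in trachea: both arms of the cartilage hairpin Mir140 (chr19:52375314-52375335 and chr19:52375353-52375373, plus strand), the basal cell miRNA of Mir205 (chr13:107564588-107564610, minus strand), both arms of Mir199a2 (chr13:77116255-77116277 and chr13:77116294-77116315, plus strand) with its neighbour Mir214 (chr13:77121713-77121733, plus strand), and Mir127 (chr6:134328510-134328531, plus strand) of an imprinted cluster. No seed is shared among these 7, and each seed belonged to 1 RefSeq mature name only.
miR-140: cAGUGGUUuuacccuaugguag
miR-140*: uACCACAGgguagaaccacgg
miR-205: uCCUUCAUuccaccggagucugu
miR-199a-5p: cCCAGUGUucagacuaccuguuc
miR-199a-3p: aCAGUAGUcugcacauugguua
miR-214: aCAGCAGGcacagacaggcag
miR-127: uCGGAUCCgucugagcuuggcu

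The last set sets miR-322, which was lower in trachea, beside the other 4 miRNAs of the RefSeq table that carry its seed AGCAGCA, and miR-3588 beside miR-125b-5p. Mir322 lies at chrX:137726198-137726219 on the minus strand, Mir16 at chr2:155555343-155555364, Mir15b at chr2:155555197-155555218, Mir195 at chr10:55450509-55450529 and Mir497 at chr10:55450172-55450193, all 4 on the plus strand. The mature miR-125b-5p of Mir125b2 and miR-3588 occupy the same bases, chr11:29732588-29732609, on the plus and the minus strand, and are exact reverse complements.
miR-322: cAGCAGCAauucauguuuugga
miR-16: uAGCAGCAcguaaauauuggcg
miR-15b: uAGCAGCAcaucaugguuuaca
miR-195: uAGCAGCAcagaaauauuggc
miR-497: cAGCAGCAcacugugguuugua
miR-125b-5p: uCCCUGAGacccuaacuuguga
miR-3588: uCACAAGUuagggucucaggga

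Values below are scaled intensities on a linear scale, given in the order of rats 4, 5 and 6, and are compared only within a miRNA, since probes differ in brightness. A value of 10.8 is the floor to which weaker signals were raised. Differences are log2 trachea minus log2 lung over 3 rats, from limma with the rat as a block. Their standard errors are those moderated by limma, which draws the variance of each miRNA towards that of all tested miRNAs. Benjamini-Hochberg adjustment ran over all 187 miRNAs, and a miRNA was called at an adjusted p under 0.05. Detected miRNAs numbered 176 to 204 on the trachea arrays and 169 to 193 on the lung arrays, no spot was saturated, and 2.29 to 3.40% of spots were left out as outliers. The intensity to which arrays were scaled was 2898 to 4281 before scaling in trachea and 5029 to 6343 in lung, so the tracheas were scaled up more. The scale rested on 37 miRNAs, among them some that were called, such as miR-21, miR-30a, miR-30d, miR-34a, miR-92a and miR-181a. One library of each organ stood apart in its marker levels. The trachea of rat 6 held more skeletal muscle signal than the other 2 tracheas, with a summed level of the 15 miR-1, miR-133, miR-206 and related striated muscle miRNAs of 1851 against 309 and 329. The lung of rat 4 held little red cell signal, with miR-451 at 17.5 against 422 and 1080. Values without 1 rat are therefore also given for the lists and the leading miRNAs where a call depended on it.

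Of the 187 miRNAs, 33 were higher in trachea (17.6% called higher) and 55 were lower (29.4% called lower), and all 88 went the same way in 3 of 3 rats. The higher ones were led by the cartilage miRNAs, the basal cell miRNA miR-205, miR-204, the miR-199a and miR-214 pair and miRNAs of the imprinted Dlk1-Dio3 cluster. The lower ones were led by miR-322, the endothelial miR-126, miR-34a and the X-linked neighbours of miR-322. The difference was over 2-fold for 26 of the higher and 29 of the lower miRNAs, and over 8-fold for 8 and 2 of them. All 3 tracheas lay above all 3 lungs for 49 miRNAs (26.2%) and below them for 62 (33.2%), and the called miRNAs that overlapped were miR-362* and miR-582, 1 in each direction. Of the tested miRNAs, 147 were detected on all 6 arrays, 23 entered through trachea and 17 through lung, so for these last 40 a difference was partly set by the filter.

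**Figure D1:**
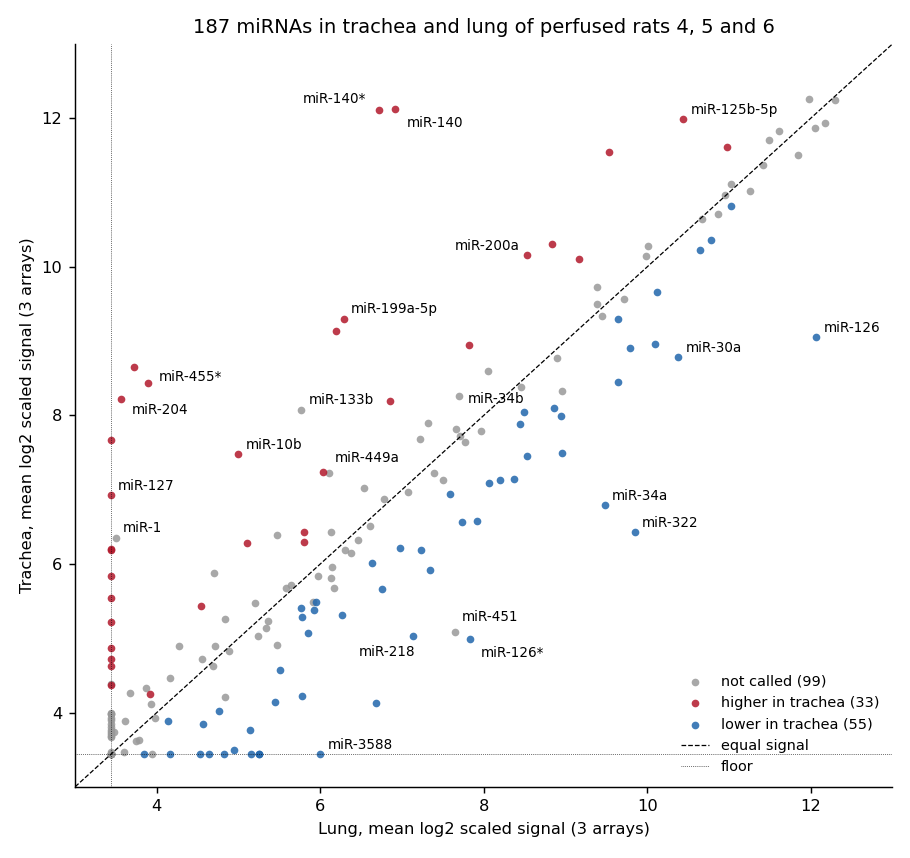
Scaled intensity of the 187 tested miRNAs in lung (horizontal) and trachea (vertical), each the mean of 3 rats on a log2 scale, coloured by whether the miRNA was called higher (33), lower (55) or not called (99). Most points lie along the diagonal, with miR-140 and its star arm far above it and miR-322 and miR-126 far below it.

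The balance between the directions moved with the scaling, while no miRNA called here was called the other way under any of the 19 alternatives. The median log2 difference over all 187 was -0.055. Scaling to the miRNAs detected on all 6 arrays gave 43 higher and 47 lower, so that 47.8% of calls were higher in place of 37.5%. Scaling to the percentile over all 717 miRNAs moved the median by -0.65 and gave 25 higher and 99 lower (20.2% higher). Another background correction (normexp) moved it by 0.25 and gave 73 and 40 (64.6% higher). Of the 99 miRNAs not called here, scaling over all miRNAs called 44, all lower, and normexp called 42, of which 40 were higher, and below, not called refers to the main setting. Under 1 or more of 6 other scalings and background corrections the sign turned for 8 of the 88 called miRNAs. Among the higher these were miR-21, miR-1224, miR-324-3p and miR-362*, which turned under scaling over all miRNAs, and among the lower miR-582, miR-181a-1*, miR-7a and miR-192, which turned under normexp. Of the 8, 7 also missed the threshold without 1 or more of the rats, and miR-192 did not. Without rat 4 the counts were 21 and 35, without rat 5 they were 20 and 27, and without rat 6 they were 37 and 40, of which 20 and 34, 20 and 26, and 28 and 40 were also called with all 3 rats. With the floor 4 times as high the counts were 20 and 32, and with it lowered 4-fold they were 49 and 59. A list's count under an alternative stands beside that alternative's totals, not beside 17.6% and 29.4%.

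Cartilage miRNAs separated the organs most. All 4 probes of the cartilage list, both arms of miR-140 and of miR-455, were higher in trachea (17.6% over all tested miRNAs), with a median log2 difference of 4.88 against -0.055 over all tested miRNAs. Of the 4, miR-455 entered the test through trachea alone, so the filter had a part in its call. The 4 stayed called without any 1 rat, 3 did so with the floor 4 times as high, and 2 did so when all 717 miRNAs were tested. The last 2 settings called 20 and 5 miRNAs higher in all. The star arm miR-140* read 5103, 4491 and 3771 in the 3 tracheas and 99.7, 93.7 and 124 in the 3 lungs, 42.1-fold higher (log2 difference 5.39 ± 0.20, adjusted p = 0.00223). The other arm, miR-140, read 4653, 4122 and 4607 against 119, 117 and 127, 36.8-fold higher (log2 difference 5.20 ± 0.049, adjusted p = 0.000621). The lowest trachea lay far above the highest lung for both arms, and the arms differed from each other by 0.19 in their log2 difference. Lungs that were not perfused read 122, 126 and 169 for miR-140, of which the highest lay above the perfused lungs. For miR-455*, tracheas read 358, 435 and 268 and lungs 13.3, 18.8 and 13.0, 23.4-fold higher (log2 difference 4.55 ± 0.10, adjusted p = 0.00173). The weaker arm miR-455 read 40.8, 40.1 and 31.6 in trachea and was not detected on any lung array, which makes it at least 3.44-fold higher (measured means 37.2 in trachea and 10.8 in lung, adjusted p = 0.00355). Such bounds set the mean of the detected organ against the floor of 10.8, or the miRNA's own signal where that was higher, on each array of the other organ.

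Cartilage was also where trachea stood first among the 55 organs of the perfused rats. Its geometric mean of 4454 for miR-140 was followed by the aorta at 1479 and bone marrow at 574, while lung was number 37 in that order. For miR-140* trachea read 4421 and the aorta 1234. For miR-455* trachea read 347 and the next organ, mesenteric lymph node, 64.8. These orders describe organ means, and no difference among the other organs was tested.

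Epithelial miRNAs rose in part. Of 4 tested probes of the basal and squamous list, 2 were higher and none was lower (17.6% and 29.4% over all tested miRNAs). Both probe sets for miR-205, the miRNA of basal and squamous cells, were higher in trachea: the older set, miR-205_v15.0, read 461, 439.7 and 322 against 14.0, 10.8 and 15.2, 30.5-fold (log2 difference 4.93 ± 0.23, adjusted p = 0.00244). The newer set read 235, 236 and 151 against lungs all at the floor, at least 18.7-fold higher (adjusted p = 0.00235), and entered the test through trachea alone, since 2 of the 3 lungs passed detection. The other miRNAs of squamous epithelium were not called, with miR-203 at 0.46 (adjusted p = 0.114) and miR-31 at -0.058, but miR-203 was called under scaling to the miRNAs detected on all 6 arrays (0.54, adjusted p = 0.0211) and under normexp (0.52, adjusted p = 0.00855). When all 717 miRNAs were tested both miR-205 sets missed the threshold (adjusted p = 0.0566 and 0.0565). Trachea was number 12 of 55 organs for miR-205, behind eyeball, skin and others, and number 26 for miR-203, which was highest in esophagus. Outside the lists, miR-204, best known from retinal pigment and lens epithelium, read 383, 199 and 346 against 10.9, 12.6 and 11.9, 25.3-fold higher (log2 difference 4.66 ± 0.29, adjusted p = 0.00382). The trachea of rat 5 was the lowest of the 3, and every trachea was far above every lung. Lung was number 52 of 55 organs for miR-204 and trachea number 16, with eyeball highest.

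The miR-200 family, which keeps epithelial cells in their epithelial state by repressing Zeb1 and Zeb2, gave calls in 1 of its 2 tested genomic clusters. Of its 10 probes 7 were tested, 3 were higher and none was lower (17.6% and 29.4% over all tested miRNAs), and the median was 0.35 (0.019 under scaling over all miRNAs). The cluster at chr5:171930717-171931589 held the 2 leading ones. There miR-200a read 1365, 898 and 1205 against 359, 325 and 435 (log2 difference 1.62 ± 0.13, adjusted p = 0.00611) and miR-200b read 1450.2, 943 and 1493 against 462, 413 and 503 (log2 difference 1.47 ± 0.12, adjusted p = 0.00636). Both were without overlap, beside 26.2% of all tested miRNAs with all 3 tracheas above all 3 lungs. Another member, miR-429, read 564, 409.8 and 518 against 233, 206 and 239 (log2 difference 1.13 ± 0.077, adjusted p = 0.00467). The other cluster, at chr4:159209525-159210033, gave no call: miR-141 read 232, 186 and 262 against 200.1, 192 and 215 (log2 difference 0.15 ± 0.091, adjusted p = 0.269), and the 2 probe sets of miR-200c differed by 0.35 ± 0.24 and 0.29. Leaving out rat 5 took miR-200a out of the called (log2 difference 1.70, adjusted p = 0.0589), leaving out rat 4 took out miR-200b (1.38, adjusted p = 0.0559), and scaling over all miRNAs took out miR-429 (0.41, adjusted p = 0.0508). In the fit over all arrays of the perfused rats with slide as a random block, 1 of the 7 was called, beside 37 of all 187 higher. There miR-200b (1.04, adjusted p = 0.0779) and miR-429 (0.78, adjusted p = 0.114) missed the threshold. Whether the 2 clusters differed from each other was not tested. The miR-183 cluster of sensory and secretory epithelium gave no call, with miR-96 at 0.50 and miR-183 at -0.20, but miR-96 was called higher under normexp (0.50, adjusted p = 0.0293) and against the lungs that were not perfused (1.04, adjusted p = 0.0277).

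The markers of multiciliated cells were measured in both organs, higher on average in trachea, and did not pass the main test. All 5 tested probes did pass under normexp, which called 73 of all 187 miRNAs higher. miR-449a read 197, 154 and 111 in the tracheas of rats 4, 5 and 6 and 82.6, 48.4 and 81.9 in their lungs, 2.17-fold higher (log2 difference 1.12 ± 0.30, adjusted p = 0.0757). All 3 tracheas lay above all 3 lungs, as they did for 26.2% of all tested miRNAs. The exact unpaired permutation test gave p = 0.1 and the exact sign-flip test p = 0.25, in each case the smallest two-sided p that 3 rats allow. Without the rat as a block the same difference was called (adjusted p = 0.0370), and without rat 6 it was larger and called (1.46, adjusted p = 0.0431). Lungs that were not perfused read 80.2, 65.2 and 132, of which the highest lay within the range of the tracheas. miR-34b read 288, 322 and 312 against 283, 127 and 246, 1.48-fold higher (log2 difference 0.57 ± 0.33, adjusted p = 0.258), with every trachea above every lung but by little over the lung of rat 4. The older probe set, miR-34b_v15.0, read 363, 402 and 395 against 366, 169 and 298 and overlapped (log2 difference 0.55, adjusted p = 0.249). In rat 4 its trachea lay just below its lung. The cluster neighbour of miR-34b, miR-34c, differs from it at 2 of 23 bases, so that the probes may share signal. miR-34c read 220.0, 263 and 236 against 209, 109 and 179.6 (log2 difference 0.58 ± 0.30, adjusted p = 0.224). Differences within a rat were smallest in rat 4 for both miRNAs, and without rats 4, 5 and 6 in turn the difference of miR-34b was 0.84, 0.18 and 0.68. Under scaling over all miRNAs miR-34b turned to -0.14, and in the lungs that were not perfused it read 244, 173 and 389, which overlapped the tracheas. Of the 9 probes on this list 5 were tested and none was called in either direction (17.6% and 29.4% over all tested miRNAs). Normexp called 5 of the 5 higher, beside 73 of all 187, at a median of 0.56 against 0.57 here. The 2 fits over all arrays of the perfused rats called 4, beside 40 and 37 of all 187 higher. Scaling over all miRNAs gave a median of -0.13 and no call, beside 25 higher. Without rats 4, 5 and 6 in turn 0, 0 and 2 of the 5 were called, beside 21, 20 and 37 higher over all tested miRNAs. The other 4, namely miR-34c*, miR-449a* and both arms of miR-449c, were detected on no array of either organ.

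Both organs nevertheless stood near the top of the 55 organs for these markers. For miR-34b the order was testicle, epididymis (470), trachea (307) and lung (207), whereas the median organ lay at the floor. For miR-449a it was testicle, trachea (150), bone marrow (87.1) and lung (68.9), and only 3 organs had it detected in all 3 rats. miR-34b, miR-34c and miR-449a were thus detected in every trachea, and in every lung too, an organ whose bronchi and bronchioles carry ciliated cells as well.

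miR-34a has the same seed as miR-34b, miR-34c and miR-449a but its own gene, is known as a target of p53, and was lower in trachea. It read 101, 112 and 119 in trachea against 741, 668 and 732 in lung, 6.46-fold lower (log2 difference -2.69 ± 0.084, adjusted p = 0.00208). The 3 tracheas lay close together, far below all lungs, and lungs that were not perfused read 715, 769.8 and 713. Trachea was number 43 and lung number 9 of 55 organs for miR-34a, which was detected in every organ. Compared base by base from the 5′ end without gaps, the miR-34a sequence differs from miR-449a at 7 of 22 positions and from miR-34b at 11. An inserted base puts all later bases out of step, so these counts understate the likeness. The stretch uuagcug occurs in each of the printed sequences with this seed. Whether their probes share signal with those of miR-34a was not tested.

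**Figure D2:**
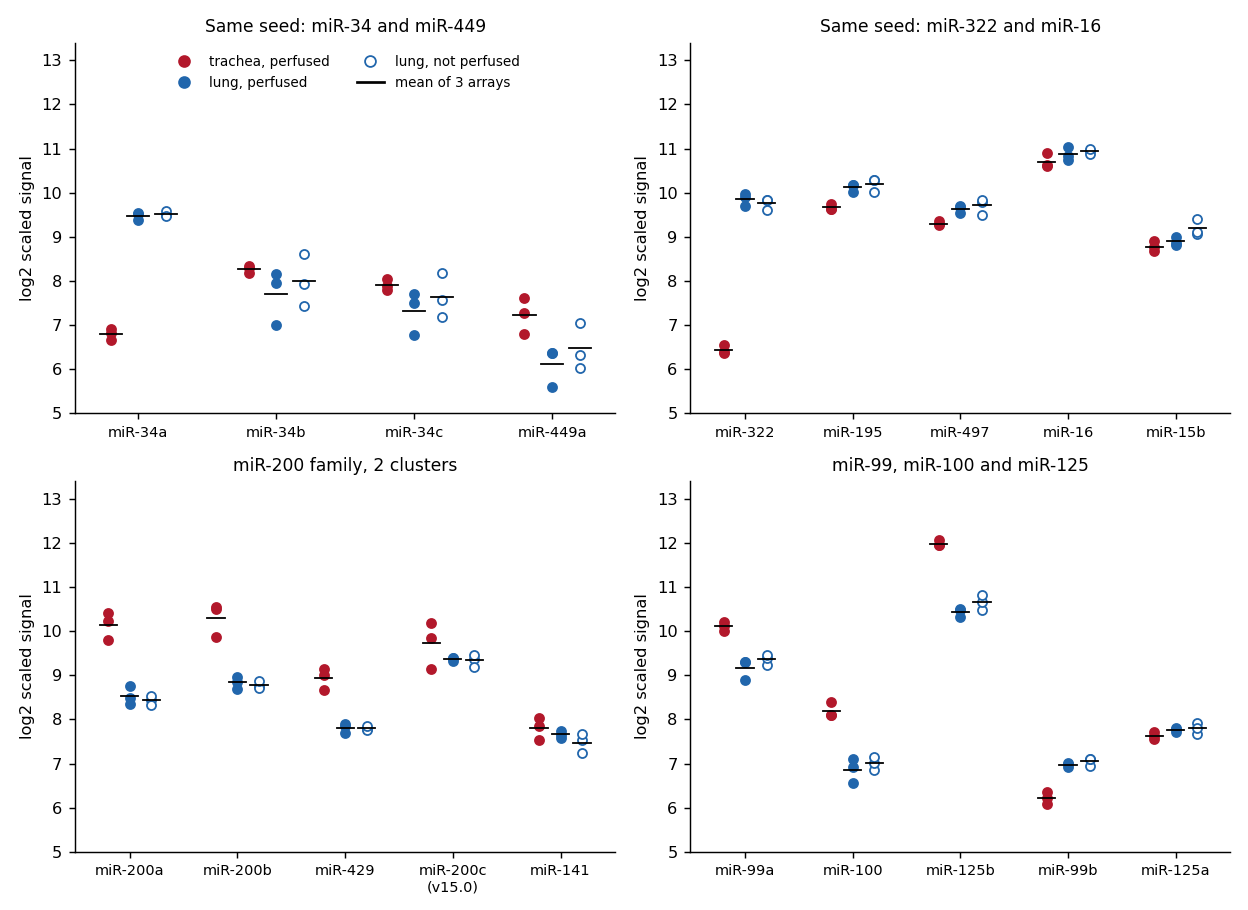
Log2 scaled intensity of members that share a seed or a family in the 3 tracheas, the 3 perfused lungs and the 3 lungs that were not perfused, 1 point per array with the mean as a bar. miR-34a and miR-322 lie far lower in trachea than in lung while the miRNAs with the same seed lie near or above their lung levels, with log2 differences from -0.45 (miR-195) to 1.12 (miR-449a).

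Mesenchymal miRNAs were higher in trachea. miR-199a and miR-214, made from neighbouring hairpins and known from connective tissue fibroblasts and skeletal development, gave 3 of 3 tested probes higher (17.6% over all tested miRNAs), with a median of 2.94. miR-199a-5p read 719.7, 702 and 495 against 85.9, 62.6 and 88.0, 8.09-fold (log2 difference 3.02 ± 0.24, adjusted p = 0.00611). miR-199a-3p read 3270.3, 3207 and 2583 against 739, 659 and 837, 4.05-fold (log2 difference 2.02 ± 0.17, adjusted p = 0.00636). miR-214 read 553, 599 and 535 against 86.7, 65.8 and 68.6, 7.68-fold (log2 difference 2.94 ± 0.13, adjusted p = 0.00235). None of the 3 overlapped between organs, beside 26.2% of all tested miRNAs with all 3 tracheas above all 3 lungs. Leaving out rat 4 left only miR-214 called (miR-199a-5p 2.99 and miR-199a-3p 1.95, both adjusted p = 0.0602), and leaving out rat 5 took out miR-199a-3p (1.89, adjusted p = 0.0594). Trachea was first of 55 organs for miR-199a-3p at 3003, just above skin at 2920, and second to skin for miR-199a-5p and miR-214.

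The Dlk1-Dio3 cluster, a large imprinted group of miRNAs expressed from the maternal chromosome and best known in brain, embryo and placenta, was read mainly in trachea. Of its 86 probes 57 were detected on no trachea array and 83 on no lung array. The 15 that were tested included 13 that entered through trachea alone, so their count of 9 higher and none lower (17.6% and 29.4% over all tested miRNAs) describes the filter as well as the organs. The strongest, miR-127, read 150.1, 121 and 98.5 in trachea and was not detected in lung, at least 11.2-fold higher (measured means 121 in trachea and 10.8 in lung, adjusted p = 0.00235). miR-434 read 90.9, 68.6 and 64.2 and miR-379 86.5, 74.1 and 60.9, also against no detected lung, at least 6.8-fold and 6.75-fold higher (adjusted p = 0.00244 for both). miR-136 read 50.1, 43.3 and 46.8, at least 4.31-fold higher (adjusted p = 0.00208), and miR-411*, miR-154, miR-411, miR-299 and miR-337 were at least 5.27, 2.71, 2.42, 2.28 and 1.91-fold higher (fitted log2 differences 2.40, 1.44, 1.28, 1.19 and 0.93). Of the 9 called, 7 lay in 2 blocks of neighbouring hairpins, at chr6:134321142-134331416, where 4 of 5 tested were called, and chr6:134543445-134562441, where 3 of 7 were. Levels of the 4 named first were highest in rat 4 in the tracheas, and the organ order put trachea at number 17 for miR-127 and 13 for miR-379, with pituitary gland and thalamus first. Without rats 4, 5 and 6 in turn 8, 5 and 9 of the 15 were called, beside 21, 20 and 37 higher over all tested miRNAs. The count also rested on the floor. With it 4 times as high 1 of the 15 was called, at a median of 0, beside 20 of all 187 higher. With it lowered 4-fold 14 were called, beside 49 of all 187. Normexp gave 15, beside 73 of all 187. When all 717 miRNAs were tested 2 of the 15 were called, beside 5 higher in all. The neuronal list had its 1 tested member, miR-128, at -0.20, and its other 6 probes were detected on no array of either organ.

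**Figure D3:**
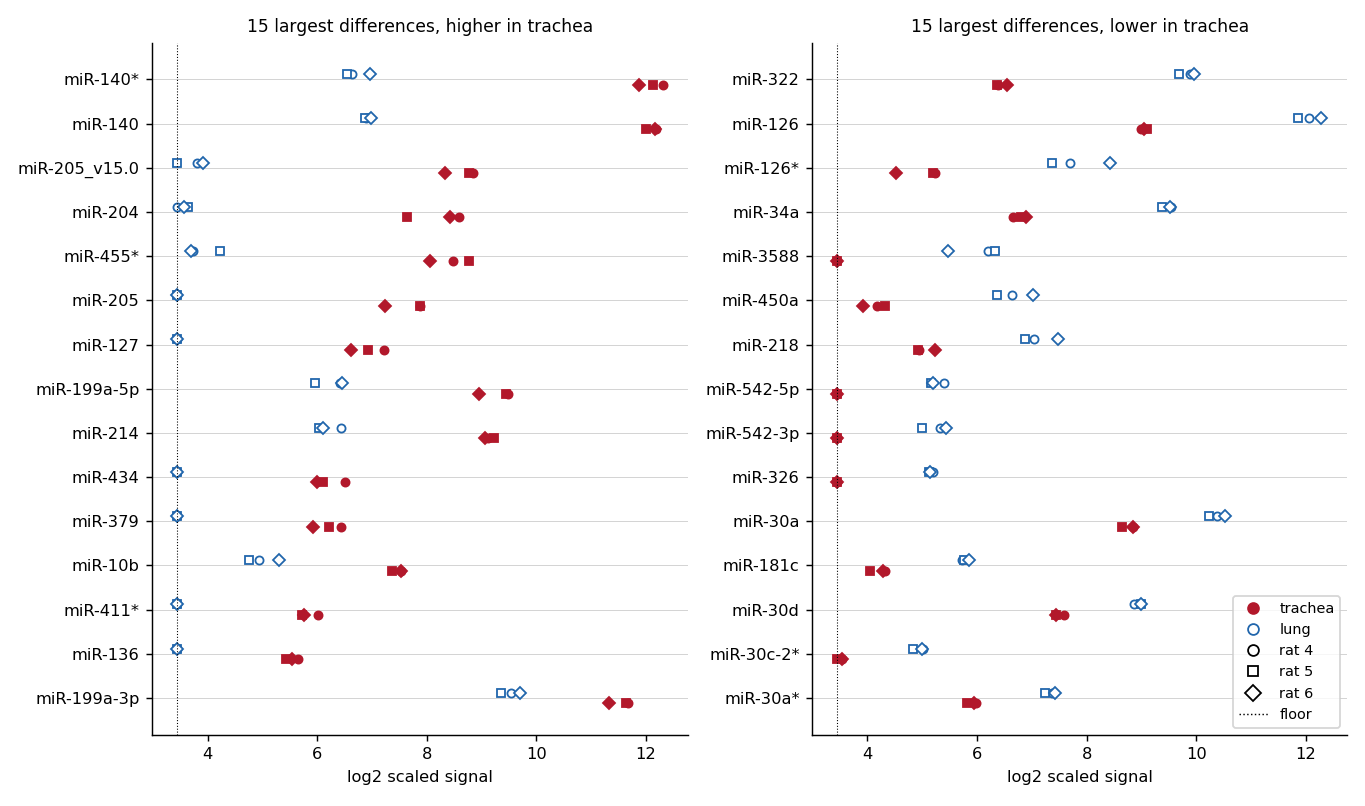
Log2 scaled intensity of the 15 miRNAs with the largest called difference in each direction in each of the 3 tracheas and 3 lungs, 1 point per array, with a symbol for each rat, and the floor as a dotted line. For all 15 higher and 15 lower miRNAs the trachea points lie on 1 side of the lung points, since only miRNAs without overlap were chosen.

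Other miRNAs higher in trachea belonged to the families of miR-10 and of miR-99, miR-100 and miR-125. miR-10b, which lies within the HoxD cluster, read 185, 165 and 185 against 30.8, 26.9 and 39.5, 5.58-fold, with 2 of the 3 lungs passing detection (log2 difference 2.48 ± 0.11, adjusted p = 0.00235), while miR-10a-5p of the HoxB cluster, close to it in sequence, was not called (log2 difference -0.11 ± 0.089, adjusted p = 0.401). miR-125b-5p read 4292, 3962 and 3962 against 1456, 1286 and 1437, 2.93-fold (log2 difference 1.55 ± 0.051, adjusted p = 0.00217), with the 3 tracheas within a narrow range. miR-100 read 336, 274 and 276 against 120.5, 94.8 and 137 (log2 difference 1.34 ± 0.14, adjusted p = 0.00987) and miR-99a read 1189, 1026 and 1106 against 634, 475 and 633 (log2 difference 0.94 ± 0.083, adjusted p = 0.00679). The paralogue miR-99b, whose sequence differs from miR-100 at 4 of 22 positions, went the other way, with 82.3, 74.9 and 67.3 against 129, 121 and 127 (log2 difference -0.75 ± 0.078, adjusted p = 0.00958). It lies at chr1:67350064-67350759 with let-7e and miR-125a-5p, which were not called (-0.16 and -0.14). Near-identical probes of these families may share signal, so these values are uncertain. miR-99b was not called without rat 4 (-0.80, adjusted p = 0.0563) or without rat 5 (-0.78, adjusted p = 0.0793). Leaving out rat 4 took out miR-99a (0.96, adjusted p = 0.0602) and leaving out rat 4 or rat 5 took out miR-100 (1.27 and 1.25, adjusted p = 0.0752 and 0.0793), while scaling over all miRNAs took out miR-99a (0.23).

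miR-21, a miRNA of injury and growth in many tissues, read 3229, 3139.9 and 3062 against 1865, 2201 and 1978, 1.56-fold (log2 difference 0.64 ± 0.075, adjusted p = 0.0118). Its 3 tracheas lay close together above all lungs, but the difference turned to -0.069 under scaling over all miRNAs and missed the threshold without any 1 of the 3 rats (0.57 to 0.71, adjusted p = 0.0551 to 0.0729).

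On the lower side, endothelial miRNAs fell. miR-126, which supports vessel integrity, read 512, 549 and 532 in trachea against 4295, 3719 and 4975 in lung, 8.1-fold lower (log2 difference -3.02 ± 0.12, adjusted p = 0.00225). Its star arm miR-126* read 37.7, 36.7 and 23.0 against 209, 166 and 343, 7.2-fold lower (log2 difference -2.85 ± 0.45, adjusted p = 0.0228). Both arms were called lower (29.4% over all tested miRNAs), and they shifted alike, by -3.02 and -2.85. Neither arm overlapped between organs, beside 33.2% of all tested miRNAs with all 3 tracheas below all 3 lungs. miR-126* missed the threshold without rat 4 (-3.04, adjusted p = 0.115) and without rat 5 (-3.18, adjusted p = 0.0967), with a larger difference in both cases, whereas miR-126 stayed called. When all 717 miRNAs were tested neither arm was called (adjusted p = 0.0546 for miR-126 and 0.268 for miR-126*). Lung was first of 55 organs for miR-126, at 4299 against 3413 in brown adipose tissue, the next, and trachea was number 32 at 531.

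The largest fall was in miR-322, the rodent counterpart of human miR-424, a miRNA of cell cycle control that is made with miR-503, miR-542 and miR-450a from one X-linked cluster. miR-322 read 83.2, 82.0 and 93.4 in trachea against 953, 823 and 1002 in lung, 10.7-fold lower (log2 difference -3.42 ± 0.056, adjusted p = 0.00152). The groups were far apart and the spread between rats was small, and lungs that were not perfused read 774, 911 and 914. The 6 tested probes of the cluster at chrX:137720933-137726241, on the minus strand, were all lower (29.4% over all tested miRNAs), with fitted log2 differences of -1.20 to -3.42. Of these 5 entered through lung alone, so only miR-322 was free of the filter's part in that count. miR-450a read 18.0, 19.9 and 15.1 against 99.7, 82.9 and 129.6 (log2 difference -2.54 ± 0.26, adjusted p = 0.00930), was detected in 1 of the 3 tracheas and was lost without rat 4 (-2.58, adjusted p = 0.0752). Both arms of miR-542 were undetected in trachea and read 42.0, 35.9 and 36.6 and 40.0, 31.9 and 43.0 in lung, at least 3.52 and 3.51-fold lower in trachea (adjusted p = 0.00223 and 0.00382). miR-503 read 24.9, 23.6 and 26.3 in lung, at least 2.3-fold lower in trachea (adjusted p = 0.00235). Lung was second only to adrenal gland for miR-322 (923) and miR-450a, and number 3 for both arms of miR-542, while trachea was number 36 for miR-322 (86.1). Without rats 4, 5 and 6 in turn 4, 5 and 6 of the 6 probes were called, beside 35, 27 and 40 lower over all tested miRNAs. With the floor 4 times as high 2 of the 6 were called, at a median of 0, and normexp gave 5. Those 2 settings called 32 and 40 of all 187 miRNAs lower. Testing all 717 miRNAs gave 2, beside 12 lower in all.

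The 4 miRNAs that share the seed of miR-322 gave log2 differences of -0.45 to -0.11, and 2 were called lower (29.4% over all tested miRNAs). miR-195 read 793, 859 and 787 against 1158, 1032 and 1154 (log2 difference -0.45 ± 0.086, adjusted p = 0.0341) and its neighbour miR-497 read 623, 652 and 612 against 830.0, 741 and 822 (log2 difference -0.34 ± 0.073, adjusted p = 0.0453), both lower. miR-16 read 1898, 1584 and 1546 against 1828, 1705 and 2095 (log2 difference -0.16 ± 0.13, adjusted p = 0.375) and miR-15b read 480.5, 406 and 433 against 452, 462 and 513 (log2 difference -0.11 ± 0.092, adjusted p = 0.386), neither called. Under scaling over all miRNAs, however, all 4 were called lower at a median of -0.97, with miR-16 at -0.88 (adjusted p = 0.00194) and miR-15b at -0.83 (adjusted p = 0.00339). That setting called 99 of all 187 miRNAs lower, at a median of -0.70. The small falls of miR-195 and miR-497 did not hold throughout. Both missed the threshold without rat 4 (-0.41 and -0.30, adjusted p = 0.165 and 0.197), without rat 6 (adjusted p = 0.135 and 0.157) and under scaling to the miRNAs detected on all 6 arrays (-0.37 and -0.26, adjusted p = 0.139 and 0.208). Without rat 5 only miR-497 missed it (-0.42, adjusted p = 0.0622).

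miR-3588 is annotated on the strand opposite to miR-125b-5p, and the pair was called in opposite directions. miR-3588 entered the test through lung alone, so the filter had a part in its call. It read 73.7, 80.4 and 44.1 in lung and was not detected in trachea, at least 5.9-fold lower there (measured means 10.8 in trachea and 63.9 in lung, adjusted p = 0.00699), where miR-125b-5p was higher. The lung of rat 6 was the lowest of the 3. The call was lost without rat 4 (-2.46, adjusted p = 0.0620) and without rat 5 (-2.40, adjusted p = 0.0659), and with the floor 4 times as high the difference was -0.56 (adjusted p = 0.314). Across the 55 organ means the 2 miRNAs had a Pearson r of 0.025 on the log2 scale, near the median of 0.017 that miR-125b-5p gave with 424 miRNAs, a description over organs of the same rats. The 2 names are 1 of 8 such exact antisense pairs in the RefSeq table.

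The miR-30 family, abundant in differentiated epithelium, heart and kidney, was lower in trachea in 6 of 9 tested members (29.4% over all tested miRNAs), with a median of -1.20, and 2 of the 9 entered through lung alone. miR-30a read 461, 400.1 and 461 against 1332, 1206 and 1473, 3.03-fold lower (log2 difference -1.60 ± 0.048, adjusted p = 0.00208), and its star arm read 63.5, 56.3 and 61.4 against 165, 151 and 171 (log2 difference -1.43 ± 0.04, adjusted p = 0.00208). miR-30d read 193, 175 and 174 against 469, 512 and 512 (log2 difference -1.46 ± 0.083, adjusted p = 0.00326), and only 1 of the 55 organs lay below trachea for it. miR-30c read 523, 472 and 451 against 884, 813 and 964 (log2 difference -0.88 ± 0.10, adjusted p = 0.0107), with no overlap, beside 33.2% of all tested miRNAs with all 3 tracheas below all 3 lungs. miR-30e was not called (0.016), although it shares the seed of miR-30a and lies beside a copy of miR-30c. Calls were lost for miR-30c and miR-30b-5p without rat 4 (-0.94 and -1.35, adjusted p = 0.0620 and 0.0752) and without rat 5 (-0.93 and -1.26, adjusted p = 0.0793 and 0.132).

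All 5 tested members of the miR-181 family, known from lymphocyte development and from endothelium, were lower (29.4% over all tested miRNAs), with a median of -0.77. miR-181c read 20.0, 16.6 and 19.4 against 53.1, 54.5 and 57.6 (log2 difference -1.56 ± 0.081, adjusted p = 0.00269) and miR-181a read 272, 292 and 258 against 446, 506 and 447 (log2 difference -0.77 ± 0.04, adjusted p = 0.00269). Both were without overlap, beside 33.2% of all tested miRNAs with all 3 tracheas below all 3 lungs. miR-181c and its neighbour miR-181d at chr19:40888291-40888556 both fell. Under normexp the family's median moved to -0.097 and 2 of 5 were called, and with the floor 4 times as high 3 were. Those 2 settings called 40 and 32 of all 187 miRNAs lower. Without rats 4, 5 and 6 in turn 3, 3 and 5 of the 5 were called, beside 35, 27 and 40 lower over all tested miRNAs. The fit over all arrays of the perfused rats called 4, and the same fit with slide as a random block called 3. Each of these 2 fits called 53 of all 187 miRNAs lower. In them miR-181b missed the threshold (-0.36 and -0.33, adjusted p = 0.198 and 0.244).

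The miR-17-92 cluster and its relatives, which drive proliferation and lung development in the embryo, were lower in 8 of 10 tested members (29.4% over all tested miRNAs), with a median of -0.94. In the cluster at chr15:98587848-98588632 5 of 6 members fell, with log2 differences of -0.93 to -1.31. Only 3 of the 6 were matched to 1 locus. The others, miR-17-5p, miR-92a and miR-19b, were also matched to a cluster at chrX:137342928-137343647, so their signal cannot be assigned to either. miR-92a read 144, 123 and 141 against 266, 263 and 272 (log2 difference -0.98 ± 0.062, adjusted p = 0.00382) and miR-19b read 191, 148 and 190.4 against 349, 343 and 421 (log2 difference -1.08 ± 0.095, adjusted p = 0.00679). Both were without overlap, beside 33.2% of all tested miRNAs with all 3 tracheas below all 3 lungs. miR-19b was lost without rat 5 (-1.01, adjusted p = 0.0626) and without rat 6 (-1.04, adjusted p = 0.0505). The count rested on the rats used. Without rats 4, 5 and 6 in turn 9, 3 and 3 of the 10 were called, beside 35, 27 and 40 lower over all tested miRNAs. It rested on the floor too, with 5 of 10 called when the floor was 4 times as high, beside 32 of all 187 lower. Of the miR-130 and miR-301 family 2 of 3 tested members were lower (29.4% over all tested miRNAs), miR-130a and miR-301a. Without rats 4, 5 and 6 in turn 0, 1 and 2 were, beside 35, 27 and 40 lower over all tested miRNAs. miR-301a missed the threshold without rat 4 (-0.77, adjusted p = 0.0561), under normexp (-0.27, adjusted p = 0.0853) and with the floor 4 times as high (-0.41, adjusted p = 0.0742). miR-130a, known from vessels, read 507, 568 and 427 against 1060.3, 1067 and 1169 (log2 difference -1.14 ± 0.14, adjusted p = 0.0129) and was lost without rat 4 (-1.18, adjusted p = 0.0907) or rat 5 (-1.26, adjusted p = 0.0661). miR-218, which targets Robo receptors and is known from neurons and vessels, read 30.7, 30.3 and 37.5 against 132, 118 and 179, 4.31-fold lower (log2 difference -2.11 ± 0.079, adjusted p = 0.00223). miR-326 read 36.6, 34.7 and 35.4 in lung and lay at the floor in all 3 tracheas, at least 3.28-fold lower there (adjusted p = 0.00173). With the floor 4 times as high it lay at the floor in both organs and gave no difference.

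Leukocyte miRNAs were lower in trachea in 2 of 4 tested members, with a median of -0.85, beside 29.4% called lower over all tested miRNAs. Scaling over all miRNAs gave 4 of 4 lower, beside 99 of all 187 in that setting. miR-150 of mature lymphocytes read 102, 93.8 and 92.4 against 249, 215 and 262, 2.51-fold lower (log2 difference -1.33 ± 0.083, adjusted p = 0.00382), and miR-223 of neutrophils and macrophages read 139.7, 153 and 127 against 262, 323 and 297, 2.1-fold lower (log2 difference -1.07 ± 0.083, adjusted p = 0.00601). Neither overlapped, beside 33.2% of all tested miRNAs with all 3 tracheas below all 3 lungs, and miR-223 was lost without rat 5 (-1.06, adjusted p = 0.0659). miR-142-3p, common to blood lineages, read 323, 331 and 309 against 375, 502 and 658 and was not called (log2 difference -0.64 ± 0.22, adjusted p = 0.114). It was called lower under scaling over all miRNAs (-1.35, adjusted p = 0.00196) and under quantile normalization (-0.56, adjusted p = 0.0191). Normexp (-0.56, adjusted p = 0.0141) and the lungs that were not perfused (-0.95, adjusted p = 0.0186) also gave that call. The summed level of the 6 leukocyte probes was 575 to 631 in trachea and 940.1 to 1304 in lung, and its part in the other differences was not tested. The summed level of the 4 red cell probes was 58.3 to 84.1 in trachea and 50.0, 455 and 1146 in the lungs of rats 4, 5 and 6, and the part of blood in the leukocyte differences was not tested. The inflammation miRNAs miR-146b (log2 difference -1.17 ± 0.12, adjusted p = 0.00930) and miR-146a (log2 difference -0.56 ± 0.12, adjusted p = 0.0455) were lower too. miR-146a missed the threshold without any 1 rat (-0.68, -0.54 and -0.45, adjusted p = 0.0583, 0.216 and 0.125), and miR-146b missed it without rat 5 (-1.10, adjusted p = 0.0793) or rat 6 (-1.11, adjusted p = 0.0594). Against the lungs that were not perfused miR-146b missed it too (-0.78, adjusted p = 0.151).

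**Figure D4:**
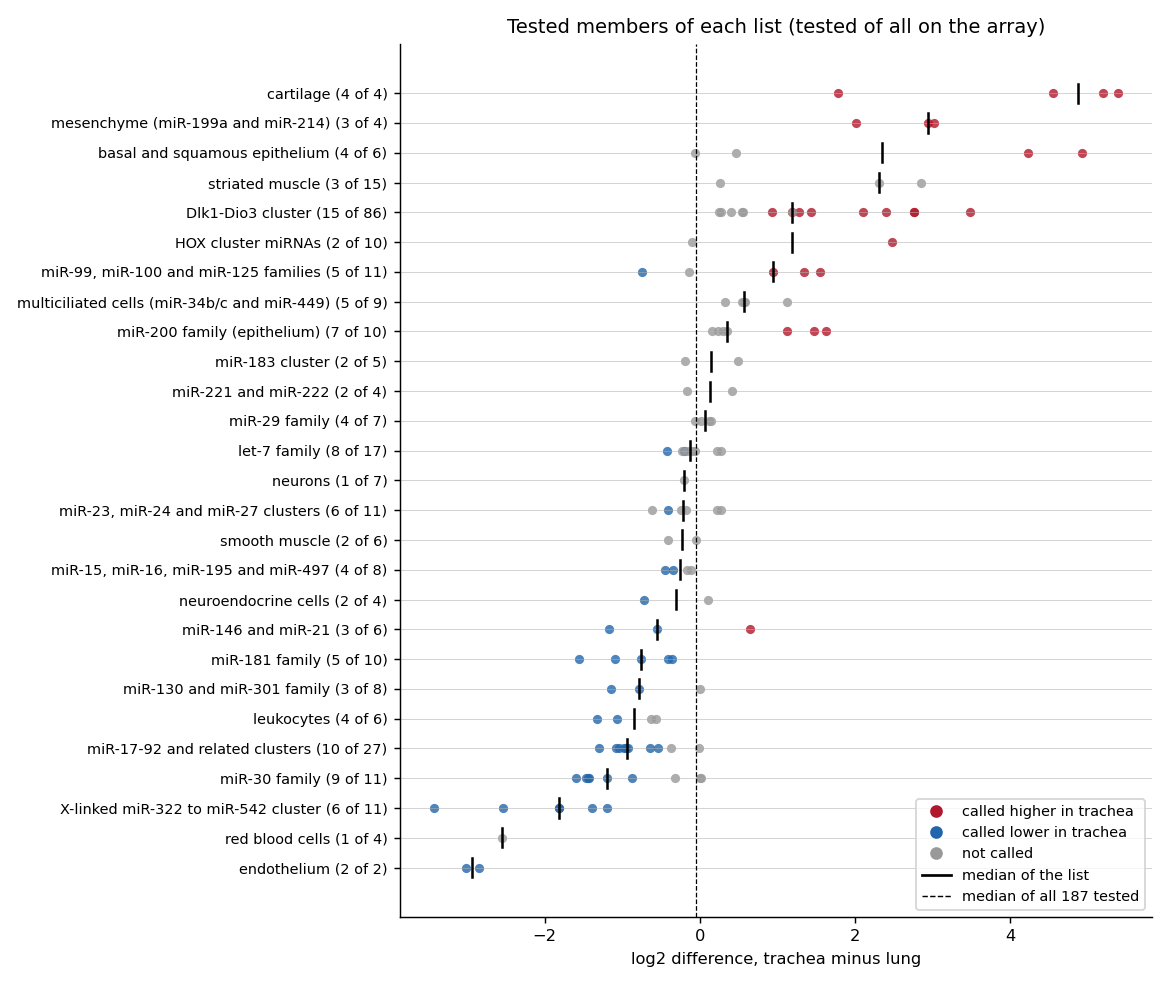
Log2 differences (trachea minus lung) of the tested members of each list, 1 point per miRNA coloured by call, with the list's median as a bar and the median of all 187 at -0.055 as a line. Cartilage and mesenchyme lie to the right with every tested member called, and endothelium, miR-181 and the X-linked cluster lie to the left.

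The striated muscle and red cell lists bear on tissue carried with the organs. Of 15 striated muscle probes 3 were tested and none was called, beside 17.6% higher and 29.4% lower over all tested miRNAs. Here miR-1 read 37.6, 24.1 and 599 against 12.3, 10.8 and 10.8 (log2 difference 2.85 ± 1.24, adjusted p = 0.177) and miR-133b read 124, 164 and 965 against 78.4, 35.4 and 58.4 (log2 difference 2.31 ± 0.82, adjusted p = 0.125). In both the trachea of rat 6 was far above the others, and miR-206, the miRNA of skeletal as opposed to heart muscle, was detected only there, at 137. Without rat 6 miR-1 was called (1.39, adjusted p = 0.0495), and normexp called all 3 higher, with miR-1 at 2.10 (adjusted p = 0.00806) and miR-133b at 1.97 (adjusted p = 0.00357). With the floor lowered 4-fold, and in the fit over all arrays of the perfused rats, 2 of the 3 were called. Over all 187 miRNAs normexp called 73 higher, the lowered floor 49 and that fit 40. The heart miRNA miR-208 was detected on no array of either organ. Without rat 6 all 4 cartilage probes were called higher and both miR-126 arms and all 6 X-linked probes lower. That fit called 37 miRNAs higher and 40 lower of 194 tested. The part of muscle in other differences was not tested. For red cells miR-451 read 29.6, 51.6 and 25.8 in trachea against 17.5, 422 and 1079.7 in lung, 405, 559 and 558 in lungs that were not perfused, and was not called (log2 difference -2.55 ± 1.50, adjusted p = 0.258). It was called lower under normexp (-1.94, adjusted p = 0.0293), in the 2 fits over all arrays of the perfused rats (-2.55 and -2.46, adjusted p = 0.00203 and 0.00352) and against the lungs that were not perfused (-3.88, adjusted p = 0.000397). The perfused lungs of rats 5 and 6 thus lay near or above the lungs with blood left in. Against the lungs that were not perfused all 4 cartilage probes were higher and both miR-126 arms and all 6 X-linked probes were lower, in a fit where 40 miRNAs were higher and 62 lower of 191 tested.

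The remaining lists gave few or no calls. Smooth muscle, which runs in the wall of both organs, had miR-143 at 2314, 3728 and 2135 against 2795, 2299 and 3210.2, overlapping (log2 difference -0.055 ± 0.33, adjusted p = 0.922), and miR-145 at -0.41 ± 0.46. The let-7 family of differentiated cells was lower in 2 of 8 tested members (29.4% over all tested miRNAs), let-7d (-0.42, adjusted p = 0.0220) and let-7i (-0.20, adjusted p = 0.0375), and the others lay between -0.23 and 0.27. Without rats 4, 5 and 6 in turn 0, 0 and 1 of the 8 were called, beside 35, 27 and 40 lower over all tested miRNAs. Scaling over all miRNAs gave 6 of 8 lower at a median of -0.84, and scaling to the miRNAs detected on all 6 arrays gave 0 of 8. Those 2 settings called 99 and 47 of all 187 miRNAs lower, at medians of -0.70 and 0. In the miR-29 family, which represses collagens, miR-29a, miR-29b and miR-29c differed by 0.013, 0.15 and 0.11. All 3 were among the 37 miRNAs on which the arrays were scaled, and all 3 turned negative under scaling over all miRNAs, where 4 of 4 tested members were called lower. The median of these 4 was -0.65 there, beside -0.70 over all 187 miRNAs, of which 99 were called lower. Of 6 tested members of the miR-23, miR-24 and miR-27 clusters 1, miR-27a, was called lower (-0.41, adjusted p = 0.0220), beside 29.4% over all tested miRNAs, and it missed the threshold without any 1 rat (adjusted p = 0.0579 to 0.121). Scaling over all miRNAs called 6 of the 6 lower, and scaling to the miRNAs detected on all 6 arrays called 2 higher and none lower. Over all 187 miRNAs the first called 99 lower, and the second called 43 higher and 47 lower. miR-221 and miR-222 were not called (-0.16 and 0.42), but miR-222 was called higher without rat 6 (0.85, adjusted p = 0.0269) and under normexp (0.50, adjusted p = 0.0131), and miR-221 lower under scaling over all miRNAs (-0.88, adjusted p = 0.00329). Of the neuroendocrine miRNAs miR-375 was not called (0.10), and miR-7a was lower (-0.72, adjusted p = 0.0119) but was lost without rat 5 (-0.68, adjusted p = 0.0998) or rat 6 (-0.66, adjusted p = 0.0673) and turned to 0.063 under normexp.

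Both arms of some hairpins could be compared. Among 19 hairpins with both arms tested, 7 had both arms called, in each case in the same direction, 7 had neither arm called and 5 had 1 arm called, beside 47.1% of all tested miRNAs called in either direction. The arms of miR-140, miR-126, miR-30a and miR-542 lay within 0.20 of each other. The widest gap, 2.77, was in miR-455, whose weaker arm was at the floor in lung. In miR-652 the main arm was lower (-1.23) and the star arm was not called (0.63).

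Set against the other organs, trachea and lung were close to each other in their whole profile. Over 425 miRNAs the Pearson r between their mean log2 profiles was 0.914, which was the highest of 54 for lung and the 4th highest for trachea, after thyroid (0.918), bladder (0.917) and anterior stomach (0.916). These correlations run across miRNAs and organs of the same 3 rats and carry no test. The 425 were the miRNAs detected on at least 1 of the 180 arrays. Of all 717 miRNAs, 483 were detected on none of the 6 trachea and lung arrays. Many of the 425 thus lay at or near the floor in both organs, which raises r. How far the order of organs follows the brightness of their arrays was not tested.

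**Figure D5:**
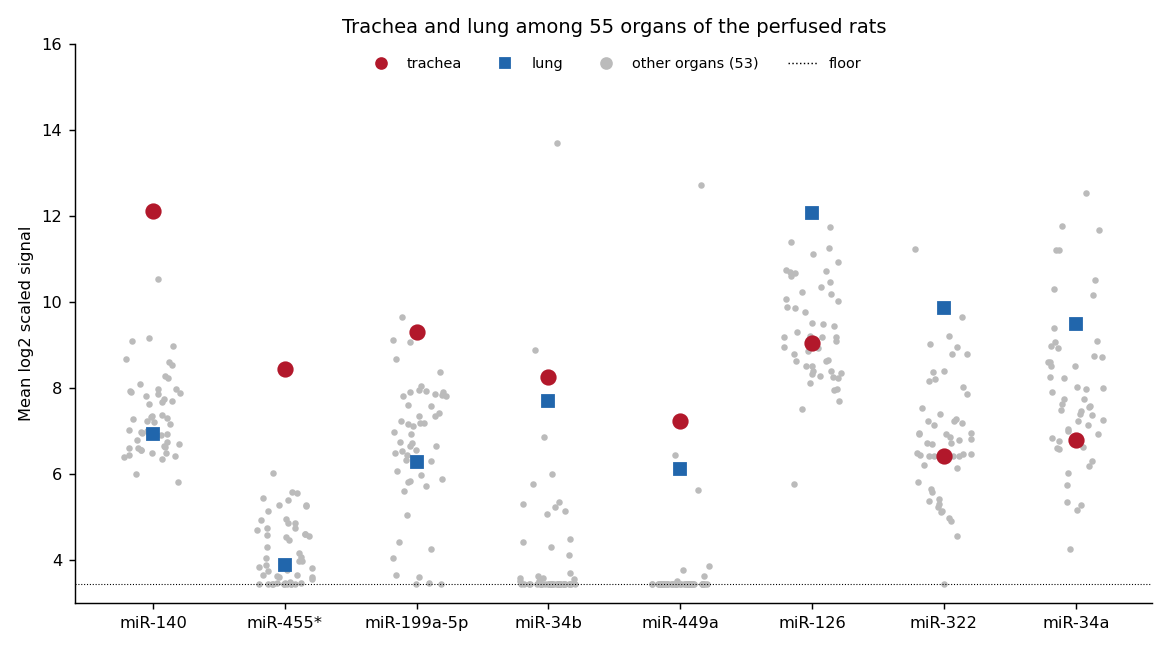
Mean log2 intensity over 3 rats in each of 55 organs for 8 miRNAs, with trachea and lung marked among the other organs. Trachea is the highest point for miR-140 and miR-455*, lung is the highest for miR-126 and the second highest for miR-322, and both lie near the top for miR-34b and miR-449a.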

How the data were processed

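RNA of each organ was extracted with a miRNeasy kit, labelled with Cy3 and hybridised to a custom 1-colour Agilent rat miRNA array. The authors deposited, per array, spot intensities from Feature Extraction 10.7.3, a version taken from the submitters' processing notes, and a table of intensities on a linear scale, normalised by the authors to the 75th percentile in Genedata Expressionist, that was used as an alternative and had 0 unmatched columns. From the deposited intensities, background-subtracted signals of 14340 spots per array were averaged over spots and then probe sequences, without outlier spots. For scaling, the 75th percentile was taken across those 37 miRNAs that no array of the 180 failed to detect, and set to its mean of 2118. Signals were raised to a floor of 10.8, the median over arrays of the weakest detected signal, and put on the log2 scale. Detection required a well-above-background flag on more than 50% of a miRNA's spots.

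miRNAs detected on all 3 arrays of either organ were fitted with limma 3.58.1 (lmFit, eBayes) in R 4.3.3, two-sided, with the rat as a block, after a check on simulated data. Figures used Python 3.11.15 and matplotlib 3.10.9. Rat numbers pair the arrays because both organs came from the same animal. Deviations from organ means correlated at 0.010, 0.177 and -0.203 within rats 4, 5 and 6 and at -0.293 to 0.233 between rats. Of these 6 arrays, both of a rat were scanned on the same day and the 3 rats on different days, while the lungs that were not perfused were scanned on the day of rat 4. The 6 arrays lay on 6 slides, so slide and array cannot be told apart. The number of arrays limits the precision, and p-values rest on the spread between 3 rats, moderated over the tested miRNAs. Named miRNAs were miR-34b and miR-449a, the 15 largest called differences without overlap in each direction, up to 4 of the brightest tested members of each list, and members on which a sentence turns. miR-362*, miR-582, miR-652 and the called miRNAs whose sign turned with the scaling or background correction were named after their values were seen. Members and lists were chosen with earlier results of these data known. Alternatives changed the scaling, background, floor, filter, probes, block, arrays fitted, lung group and rats used. The median spot signal was used for normexp, with an offset of 50. Of the 187 tested miRNAs, 155 (82.9%) were matched by name to a RefSeq hairpin, and hairpins within 10000 bases on 1 strand were read as a cluster. Sequences absent from the RefSeq table are not shown.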

Additional observations from a re-analysis of the deposited data

How the results depend on the processing

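Of 93 single miRNAs followed through 19 alternatives, 56 were called, and 1546 of 1752 alternative values stayed on their side of the threshold, 133 lost the call, 66 gained one and 7 turned sign where 1 of the 2 fits gave a call. Of the 1546, 37 turned sign with no call in either fit. Under scaling over all 717 miRNAs miR-375 turned to -0.61, miR-29a to -0.70, miR-29b to -0.56, miR-29c to -0.60, miR-23b to -0.50 and miR-21 to -0.069, and under normexp miR-7a turned to 0.063. Testing all 717 miRNAs without a filter left 5 higher and 12 lower, with 43 single calls lost. Of the 56 called, 21 kept their call under every other alternative in which they were tested. The stricter filter tested only miRNAs detected on all 6 arrays, so the others have no value in it. With all 717 tested, calls were left in 6 of the 27 lists, namely cartilage (2), miR-30 (3), miR-181 (2), miR-99, miR-100 and miR-125 (1), the X-linked cluster (2) and Dlk1-Dio3 (2), and in none of the others, endothelium and miR-205 among them. A floor 4 times as high left 20 higher and 32 lower, among them none of the miRNAs at the new floor in both organs. Normexp gave 73 higher, and scaling over all miRNAs gave 99 lower. Leaving out 1 rat gave 20 to 37 higher and 27 to 40 lower. Testing all 717 changed more than the number of tests. The unadjusted limma p was under 0.05 for 90 miRNAs there, against 97 with the filter, although miRNAs were only added. That fit also drew its shared variance from 483 miRNAs that were detected on none of the 6 arrays. A lost call in that setting is therefore not a matter of adjustment alone. The cause of these shifts was not tested further.

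miR-34b became called under normexp (0.55, adjusted p = 0.0373), in a fit over all arrays of the perfused rats (0.57, adjusted p = 0.0226) and in that fit with slide as a random block (0.59, adjusted p = 0.0210), and ranged from 0.18 to 0.84 when 1 rat was left out. miR-449a became called under scaling to the miRNAs detected on all 6 arrays (1.20, adjusted p = 0.0481), with the floor lowered 4-fold (1.12, adjusted p = 0.0213), under normexp (1.00, adjusted p = 0.000590), under the stricter filter (1.12, adjusted p = 0.0384), without the replicate block (1.12, adjusted p = 0.0370), and in the 2 fits over all arrays of the perfused rats (1.12 in both, adjusted p = 2.81e-17 and 7.29e-17), and ranged from 0.85 to 1.46 when 1 rat was left out. Those 2 fits take the spread also from organs in which the miRNA lay at the floor on every array, and 8 arrays of other organs in them carry 2 different rat numbers in their labels, of which the number in the title was used. Without the replicate block 38 were higher and 55 lower, sharing 32 and 53 with the paired fit. Depth of signal limits the weak miRNAs, and a difference against an organ at the floor is a bound even where a fitted value is printed.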
